A study of Mus musculus with 4 samples.

Results

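The 7 genes of MHC class II presentation described here are H2-Aa, H2-Ab1 and H2-Eb1 (chains of the I-A and I-E molecules), Cd74 (the invariant chain), H2-DMa and H2-DMb1 (the chains of H2-DM) and Ciita. They were chosen by symbol, and all 7 were found among the 15690 genes listed in the series. RefSeq's annotation of GRCm38.p6 places 5 of them on chromosome 17: H2-Aa at 34282744 to 34287823, H2-Ab1 at 34263227 to 34269418, H2-Eb1 at 34305867 to 34316674, H2-DMa at 34119693 to 34139101 and H2-DMb1 at 34153191 to 34160229. Ciita lies on chromosome 16 at 10480014 to 10531064 and Cd74 on chromosome 18 at 60803849 to 60812652.

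MHC class II molecules carry peptides from the endosome to the surface of antigen-presenting cells, where CD4+ T cells read them. An alpha and a beta chain pair in the endoplasmic reticulum with the invariant chain, which blocks the peptide groove and directs the complex to the endosome. There the peptide exchange factor H2-DM removes the remnant of the invariant chain and lets peptides bind. The transactivator Ciita switches the set on: it does not bind DNA itself but joins a protein complex that sits on the X and Y boxes upstream of these genes. In the resting brain, microglia are known for little class II, and dendritic cells, activated monocyte-derived cells and some border-associated macrophages for much more.

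Transcripts were counted in single myeloid cells sorted from brains of mice with lung cancer brain metastasis into 384-well plates, 1 plate for each of 4 groups. BMDM with WBRT and microglia with WBRT came from mice given whole brain radiation therapy (WBRT), labelled as 5 fractions of 2 Gy with the term d3, whose starting point is not stated; their tumor stage is given as not stratified. BMDM without WBRT and microglia without WBRT came from mice given no WBRT, with a tumor stage given as small. BMDM is not spelled out in the labels and stands in the field for bone marrow-derived macrophages; the gates behind both sorts are not given. All mice were athymic nude animals on Balb/C (stock CAnN.Cg-Foxn1nu/Crl), which lack a thymus and so most mature T cells. No animals are named and each group is 1 library, so there is no replicate and no test was made. Plate, tumor stage and WBRT cannot be told apart.

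The kept wells numbered 262 in BMDM with WBRT, 234 in BMDM without WBRT, 151 in microglia with WBRT and 157 in microglia without WBRT, with a median of 2546 to 8894 counts per well. The sort labels were checked against a list of 7 microglia markers such as P2ry12 and Tmem119. Its summed level was 937 and 1229 CPM in the BMDM plates (with and without WBRT), against 6007 and 4519 CPM in the microglia plates, where CPM is counts per 1000000 endogenous counts of a plate's kept wells. At least 3 transcripts from at least 2 of these genes, which is called carrying the list below, were found in 53.8% and 40.6% of BMDM wells and in 77.5% and 92.4% of microglia wells. At full depth, which differed between plates, both BMDM plates thus held microglia markers in many wells, at a lower summed level. P2ry12 was then in 36.6% and 24.8% of BMDM wells and in 50.3% and 62.4% of microglia wells. With every well thinned to 1000 transcripts, it was in 3.82% and 5.56% of BMDM wells and in 31.1% and 22.9% of microglia wells. The part of depth in the shares carrying the list was not tested beyond this gene. The same 384 well names occur in every plate and mark positions, not shared cells.

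All 7 genes were higher in BMDM than in microglia, in both pairs of plates. H2-Aa had 6947 CPM in BMDM with WBRT, 9307 CPM in BMDM without WBRT, 172 CPM in microglia with WBRT and 390 CPM in microglia without WBRT. Cd74 had 8594, 6954, 170 and 311 CPM in the same order of plates. Ciita, the switch of the set, had 78.4 and 169 CPM in the BMDM plates, against 2 and 4 counts in the whole of the microglia plates with and without WBRT (3.08 and 4.57 CPM). H2-DMa was the 1 member within 3-fold between the sorts.

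Class II genes are known for X and Y boxes upstream of their starts, where Ciita acts, and the stretches that hold both cores are shown for that reason. RefSeq's promoter table for GRCm38.p6 holds 250 bases before to 50 bases after a gene's start, from the C57BL/6J reference and not from these mice, and lists H2-Aa, H2-Eb1, H2-DMa and H2-DMb1 among the members; H2-Ab1, Cd74 and Ciita were not matched. The search was for an X box core (GNAAC) followed by 20 to 30 bases and a Y box core (TGATTGG), on the gene's own strand. The capitals mark the 2 cores, and the runs are written 5′ to 3′ on that strand, with those of H2-Ob and H2-Oa, which encode the chains of H2-DO, the inhibitor of H2-DM, for comparison.
H2-Aa, chr17:34287847-34287924, minus strand: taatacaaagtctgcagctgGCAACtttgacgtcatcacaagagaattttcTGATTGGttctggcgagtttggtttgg
H2-Eb1, chr17:34305756-34305832, plus strand: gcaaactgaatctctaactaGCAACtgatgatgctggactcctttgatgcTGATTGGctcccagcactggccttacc
H2-DMb1, chr17:34153077-34153154, plus strand: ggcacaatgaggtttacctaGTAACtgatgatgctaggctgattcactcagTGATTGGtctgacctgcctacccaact
H2-Ob, chr17:34238798-34238872, plus strand: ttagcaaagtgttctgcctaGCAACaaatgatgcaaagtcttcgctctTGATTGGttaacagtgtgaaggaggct
H2-Oa, chr17:34092283-34092360, plus strand: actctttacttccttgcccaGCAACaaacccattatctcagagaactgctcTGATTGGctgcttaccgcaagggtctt

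The gap between the cores was 26 bases in H2-Aa, 25 in H2-Eb1, 26 in H2-DMb1, 23 in H2-Ob and 26 in H2-Oa, and the X core began at -81, -91, -94, -87 and -76 relative to the annotated start. The 2 windows listed for H2-DMa, at 34122582 to 34122881 and 34125268 to 34125567 on chromosome 17, lie inside the annotated gene and hold no pair; its annotated start at 34119693 was not searched. For all genes, windows of the full 300 bases were searched on both strands, with repeats of a sequence within a gene counted once. Of these 32851 windows, 106 held the pair (0.323%). The Y core alone was in 7.82% and the X core alone, a short motif, in 84.8%. These shares come from a wider search than that on the gene's own strand.

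**Figure D1:**
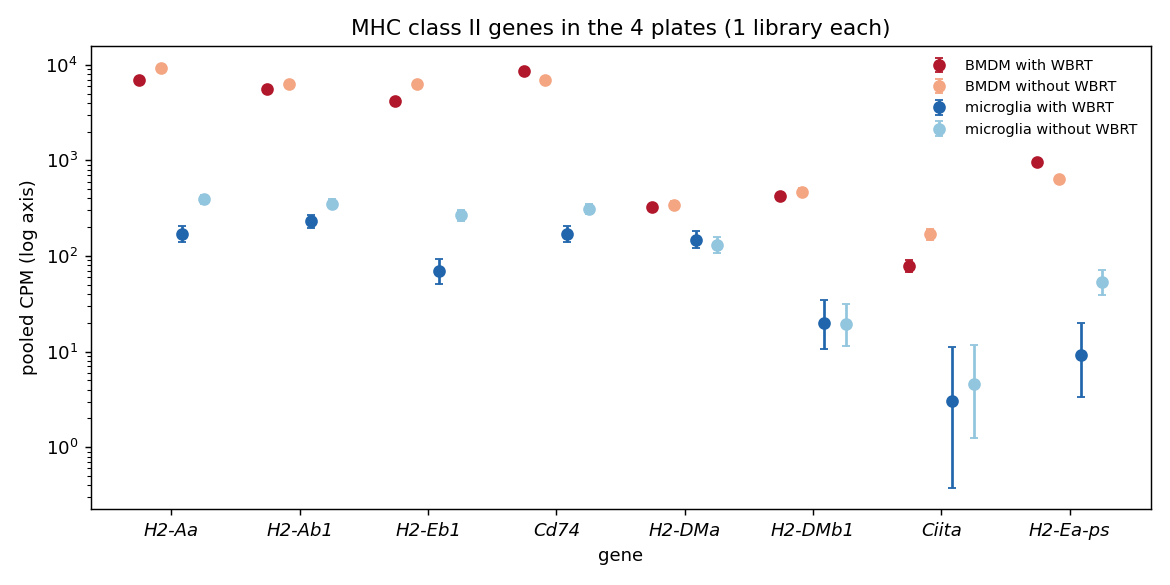
Pooled CPM (log axis) of the 7 members and of H2-Ea-ps in the 4 plates, 1 point per library with its exact 95% Poisson interval, which covers counting error only. The chains, Cd74, H2-DMb1 and Ciita are set far apart between BMDM and microglia, and H2-DMa sits between 131.5 and 342.2 CPM in all 4 plates.

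The first comparison asks how far the class II set differs between cells sorted as BMDM and as microglia. With WBRT, all 7 members were at least 2-fold higher in BMDM, against 7.91% of the 6774 genes compared; none was at least 2-fold lower, against 7.45%. The median log2 ratio of CPM + 5 was 4.57, against 0.07 over all these genes. Without WBRT, all 7 were again at least 2-fold higher, against 10.3% of 6591 genes, and none at least 2-fold lower, against 6.81%, with a median of 4.28 against 0.02. H2-DMa sat close to that line: its log2 ratio was between 0.87 and 1.37 with WBRT and between 0.998 and 1.62 without over 15 alternative settings, under 2-fold in 3 and 1 of them. The 2 comparisons share no plate. Fold intervals below are exact conditional 95% intervals for counts.

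For the peptide-binding chains the folds were large. H2-Aa was 40.5-fold higher with WBRT (95% interval 33.7 to 49.4) and 23.8-fold higher without it (21.4 to 26.7). H2-Ab1 had 5580 against 230 CPM with WBRT and 6234 against 353 CPM without, which is 24.3-fold and 17.7-fold. H2-Eb1 had 4209 against 69.4 CPM and 6353 against 266 CPM, which is 60.7-fold and 23.8-fold. The invariant chain followed the chains it escorts, with Cd74 50.5-fold (42.0 to 61.7) and 22.4-fold (19.8 to 25.3) higher.

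The chains of H2-DM, which act as a pair in the cell, were not alike. H2-DMb1 had 425 CPM in BMDM against 20.03 CPM in microglia with WBRT, and 470.5 against 19.4 CPM without, which is 21.2-fold (12.4 to 40.0) and 24.2-fold (15 to 41.9). H2-DMa had 328.5 CPM in BMDM against 148 CPM in microglia with WBRT, and 342 against 131.5 CPM without. Its folds were only 2.22 (1.80 to 2.77) and 2.60 (2.11 to 3.22). The intervals of the 2 H2-DM chains do not overlap in either comparison. H2-DMb2, a close copy next to H2-DMb1, had at most 4 counts in a plate, and whether the counting split reads between the copies was not tested.

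Ciita was 25.5-fold higher with WBRT, but the microglia value rests on 2 counts and its interval runs from 6.95 to 212. Without WBRT it was 37.0-fold higher on 4 microglia counts (14.2 to 137). Among the other class II genes, H2-Ea-ps had 962 CPM in BMDM against 9.24 CPM in microglia with WBRT and 643.5 against 54.0 CPM without. The reference strain annotates H2-Ea as a transcribed pseudogene, whereas BALB/c mice are known to carry a working E alpha gene, the partner chain of H2-Eb1. The submitters' processing notes name the build GRCm38, and what the strain's own class II alleles do to the counts was not tested.

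A large share of the class II signal of each microglia plate came from 1 well, which held 34.5% of all member counts with WBRT and 58.0% without. In microglia with WBRT, 1 well of 151 held 55.1% of the H2-Aa counts, 50.2% of Cd74, 31.0% of H2-Ab1 and 5 of the 6 counts of H2-Ea-ps. In microglia without WBRT, 1 well of 157 held 61.9% of the H2-Aa counts, 75.4% of Cd74, 64.0% of H2-Ab1 and every count of Ciita and H2-Ea-ps. H2-DMa was no part of this, with 1 count in each of these wells. Their H2-Aa levels were 35571 and 26947 CPM, beside highest BMDM wells of 33709 CPM with WBRT and 42776 CPM without. The next microglia wells had 4 and 6 H2-Aa UMIs (unique molecular identifiers, 1 per captured transcript), against 61 and 206 in these.

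By the marker lists the 2 wells were not alike. The well with WBRT, with 1728 counts, had 3 counts of Sparc and 1 each of Tmem119 and Gpr34, so it carried the microglia list, and 0 counts of every gene of the mature, Cd209a and general dendritic cell lists, with 1 of Tlr3 from the type 1 list. The well without WBRT, with 7842 counts, had 6 counts of Ccr7 and 3 of Dpp4, from the mature and general dendritic cell lists, 0 of P2ry12 and Tmem119 and 1 each of Siglech and Sparc. No other gene of the mature and general lists had a count in it, so it carried neither, and it did not carry the microglia list. B cells also carry class II, and Cd79a, Cd79b and Ms4a1 had 0 counts in both. What these cells were was not tested.

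Leaving out those 2 wells, chosen after their values were seen, raised the folds of the chains and left that of H2-DMa nearly as it was. Wells were left out of the microglia plates alone and all BMDM wells stayed in. The direction of these changes thus follows from the choice of wells, and only the sizes are described. H2-Aa became 89.9-fold (68.2 to 121) and 62.1-fold (52.2 to 74.3) higher in BMDM with and without WBRT. Cd74 became 101-fold (77.7 to 134) and 89.97-fold (70.8 to 116) higher. H2-DMa stayed at 2.24-fold (1.81 to 2.80) and 2.60-fold (2.11 to 3.23). Ciita was then left with 1 count in microglia with WBRT, giving 50.8-fold (9.003 to 2015), and with 0 counts in microglia without WBRT, against which BMDM was at least 48.9-fold higher, taking 3 counts over the plate as the floor.

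**Figure D2:**
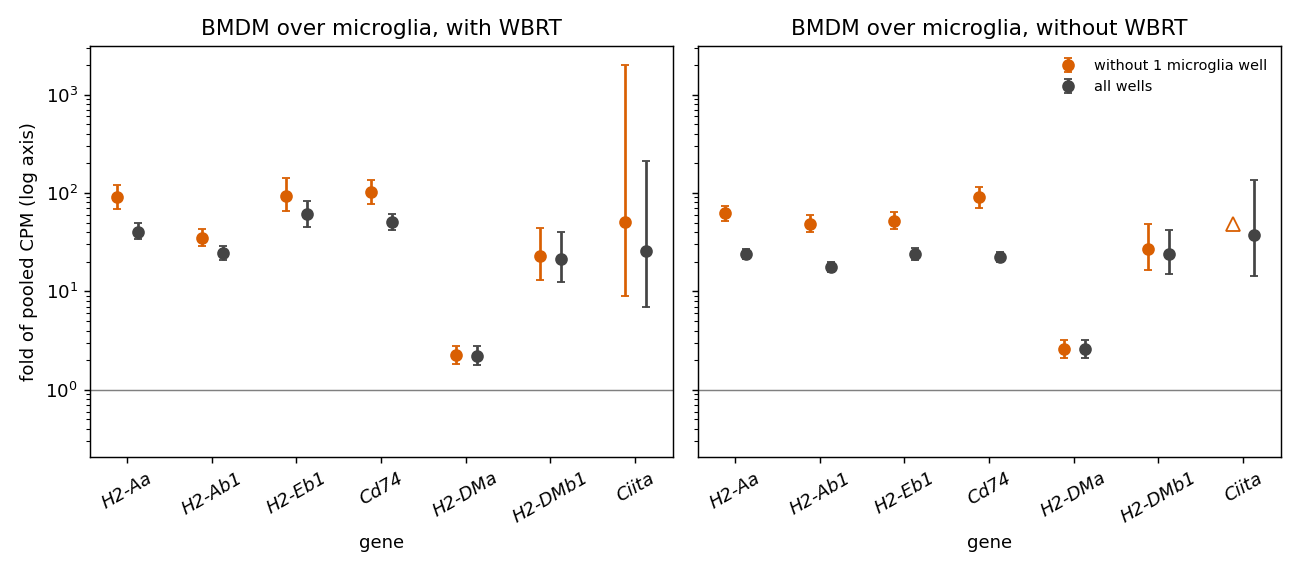
Fold of pooled CPM in BMDM over microglia (log axis) for each member, with WBRT (left panel) and without WBRT (right panel), without the 1 microglia well with most member counts (orange) and with all wells (grey); bars are exact conditional 95% intervals and the open triangle is a lower bound against 0 counts. The chains and Cd74 stand between 17.7-fold and 101-fold, and H2-DMa between 2.22-fold and 2.60-fold.

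What class II signal the other microglia wells held was spread thinly, and H2-DMa had the smallest share of its counts in its top well. H2-DMa was seen in 55 of 151 wells with WBRT (36.4%, exact interval 28.8 to 44.6) and in 65 of 157 without (41.4%, 33.6 to 49.5), with at most 11 and 6 UMIs in a well and 11.5% and 5.22% of its counts in its top well. H2-Aa was seen in 26.5% and 52.2% of microglia wells, H2-Ab1 in 36.4% and 42.7%, and Cd74 in 19.9% and 29.9%. Depth differs between those plates, with a median of 2546 and 4789 counts per well; after every well was thinned to 1000 UMIs, H2-Aa was seen in 11.9% (7.22 to 18.2) and 15.9% (10.6 to 22.6). Wells that failed the filter on counts and ERCC spike-in share held H2-Aa in 12.4% and 5.73% of cases in the microglia plates. Their median was 200 and 84 UMIs. H2-Aa made up 324.6 and 278.6 per 1000000 UMIs there with and without WBRT. In kept wells it made up 171.8 and 386.1, or 77.6 and 150.7 without the top well. H2-Ab1, H2-Eb1 and Cd74 were likewise higher in failed wells than in kept wells without the top well. H2-DMa was in 6.44% and 4.85% of those failed wells. It made up 213 and 208.9 per 1000000 UMIs there with and without WBRT, against 148.6 and 132.1 in kept wells. Single UMIs of the chains or of H2-DMa in a well are therefore not read as expression. The part of RNA from other wells in the counts of H2-DMa, the chains and Cd74 was not tested.

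The proportion of H2-DMa to H2-Aa also differed between the sorts. H2-DMa had 0.048 and 0.037 UMIs for each UMI of H2-Aa in the BMDM plates with and without WBRT. In the microglia plates it was 0.865 (0.651 to 1.15) and 0.342 (0.275 to 0.424) over all kept wells, and 1.90 (1.34 to 2.73) and 0.877 (0.676 to 1.14) without the top well, so 1 well moved it by more than 2-fold in each plate. It was above the BMDM ratio either way. H2-DMb1 had 0.062 and 0.051 UMIs per H2-Aa UMI in the BMDM plates, against 0.117 and 0.051 over all microglia wells and 0.240 and 0.115 without the top wells. Without WBRT its ratio over all microglia wells (0.029 to 0.082) spanned the BMDM ratio, and that without the top well (0.063 to 0.197) lay above it. Levels of different genes are not compared here, only the same ratio between plates.

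**Figure D3:**
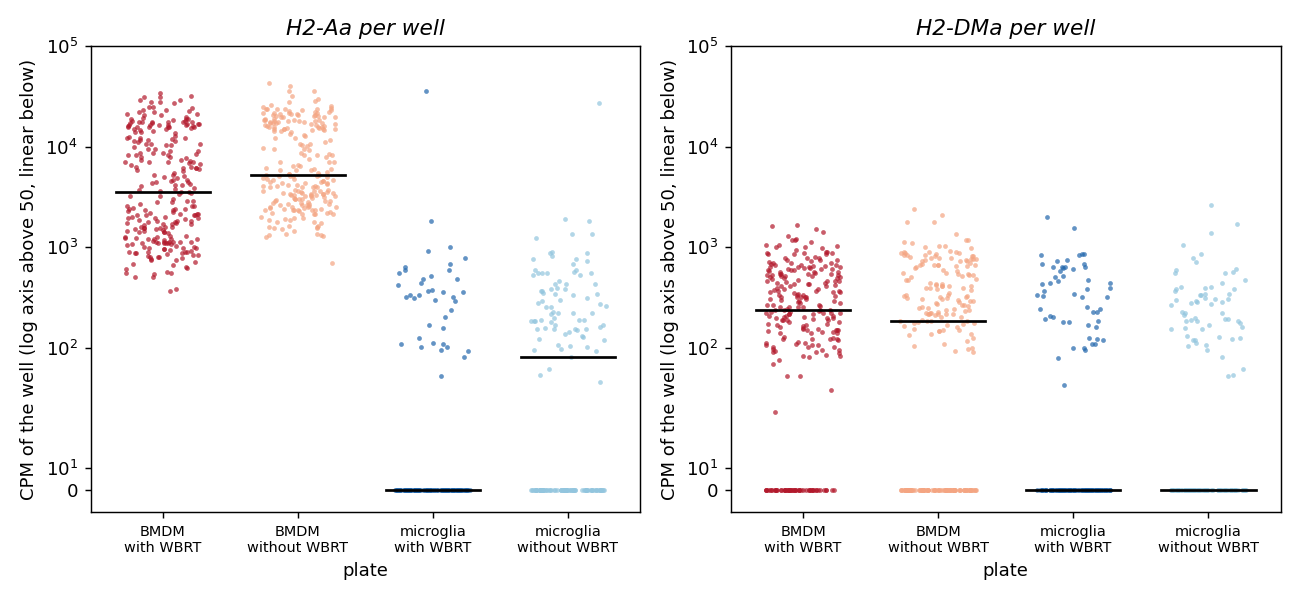
CPM of single wells (points; log axis above 50 CPM, linear below) for H2-Aa (left) and H2-DMa (right) in the 4 plates, with the median as a line. H2-Aa is above 0 in every BMDM well and under 3000 CPM in all but 1 well of each microglia plate, and H2-DMa is at 0 in 53 and 91 BMDM wells and in 96 and 92 microglia wells with and without WBRT.

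Within the BMDM plates, the chains varied over more than an order of magnitude between wells. H2-Aa was seen in all 262 and all 234 wells. The 10th percentile, median and 90th percentile of its well level were 881, 3564 and 18500 CPM with WBRT and 2022, 5203 and 21489 CPM without. With WBRT, 78 wells (29.8%) had at least 10000 CPM and 48.1% fewer than 3000 CPM, while without WBRT these were 89 wells (38.0%) and 26.9%. The plates overlapped over most of the range; 40 wells were under 1000 CPM with WBRT and 1 without.

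That every BMDM well held H2-Aa has to be read beside the wells that failed the filter. There H2-Aa was seen in 54.1% of 122 wells with WBRT and 53.3% of 150 wells without, at a median of 177.5 and 98 UMIs, and made up 5730 and 9308 per 1000000 UMIs, beside pooled levels of 6947 and 9307 CPM in kept wells. H2-DMa was seen in 1 and 6 of those wells and Ciita in 1 well of each plate. The part of RNA from other wells in the low H2-Aa values was not tested.

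The chains and Cd74 moved together from well to well. Over BMDM wells thinned to 1000 UMIs, Spearman's rho with H2-Aa was 0.82 and 0.80 for H2-Ab1 (with and without WBRT, 262 and 234 wells), 0.75 and 0.76 for H2-Eb1, and 0.82 and 0.79 for Cd74. It was 0.52 and 0.53 for H2-DMb1, 0.27 and 0.24 for H2-DMa and 0.27 and 0.35 for Ciita, genes with few UMIs at this depth. In wells with at least 3000 UMIs, thinned to that number, rho was 0.54 and 0.47 for H2-DMa and 0.43 and 0.56 for Ciita. These are descriptions over wells that share a library. In the microglia plates rho lay between -0.05 and 0.19 at 1000 UMIs, and Ciita had no UMI left there.

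Wells were then put in classes by their H2-Aa UMIs among 1000. With WBRT, Ciita was seen in 0 of 32 wells without an H2-Aa UMI (upper limit 10.9%), 2.80% of 107 wells with 1 to 4, 11.4% of 70 with 5 to 14 and 18.9% of 53 with 15 or more (exact interval 9.44 to 32.0). Without WBRT the shares were 1 of 8 wells, 1.03% of 97, 15.9% of 63 and 34.8% of 66 (23.5 to 47.6). Ciita was thus seen most often where H2-Aa was highest, in both plates. In wells with 15 or more H2-Aa UMIs it reached 264 per 1000000 UMIs with WBRT and 470 per 1000000 UMIs without.

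H2-DMb1 and H2-Ea-ps were also seen most often in the class with most H2-Aa. In the classes of 1 to 4, 5 to 14 and 15 or more H2-Aa UMIs, H2-DMb1 was seen in 6.54%, 37.1% and 60.4% of wells with WBRT and in 8.25%, 20.6% and 65.2% without. H2-Ea-ps was seen in 6.54%, 60.0% and 92.5% of these wells with WBRT and in 4.12%, 31.7% and 77.3% without. H2-DMa was seen in 15.9%, 24.3% and 49.1% with WBRT and in 13.4%, 28.6% and 36.4% without. In the class of 1 to 4, H2-DMa stood at 168 and 144 per 1000000 UMIs, near its 147 and 131.5 CPM in the microglia wells other than the top wells, while H2-Aa stood at 1953 and 2701 per 1000000 UMIs.

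**Figure D4:**
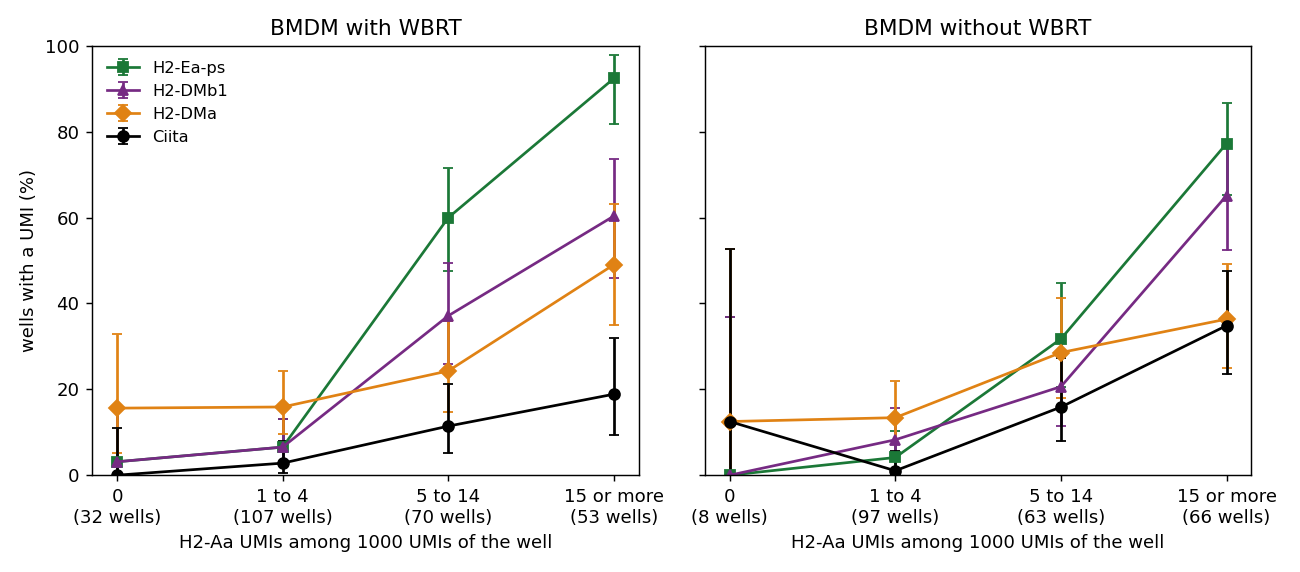
Share of BMDM wells with a UMI of H2-Ea-ps, H2-DMb1, H2-DMa and Ciita by the H2-Aa UMIs of the well, after thinning to 1000 UMIs, with WBRT (left) and without WBRT (right); bars are exact 95% binomial intervals. H2-Ea-ps and H2-DMb1 climb from under 10% to over 60% between the class of 1 to 4 and that of 15 or more, H2-DMa starts higher and climbs less, and the leftmost class without WBRT holds 8 wells.

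Outside the members, the gene most like H2-Aa over BMDM wells was H2-Ea-ps, with a rho of 0.74 with WBRT and 0.62 without. Of 448 genes ranked by the mean rho of the 2 plates, the following 9 were Ifitm1 (0.38), Il1b (0.37), Ccr2 (0.36), Tpt1 (0.35), Rps9 (0.35), Ifitm3 (0.33), Cd52 (0.32), Ms4a4c (0.30) and Zfp36l2 (0.29). Ccr2, the chemokine receptor of inflammatory monocytes, had 969 and 389 CPM in the BMDM plates with and without WBRT. The gap from H2-Ea-ps, at a mean of 0.68, to the next gene was large. Of the enzymes that cut antigen and invariant chain, several ran against H2-Aa: rho was -0.60 and -0.48 for Ctsd and -0.42 and -0.48 for Ctsb, the cathepsin D and B genes, and -0.36 and -0.34 for the legumain gene Lgmn. Ctss, the cathepsin S gene, was at -0.06 and -0.32.

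BMDM wells with Xcr1 and Clec9a, and those with the general dendritic cell list, had H2-Aa and Ciita levels above those of their plates. Wells carrying any dendritic cell list were closer to their plates, with 8185 CPM of H2-Aa with WBRT and 9717 CPM without. All kept wells had 6947 and 9307 CPM. Levels for the other dendritic cell lists taken singly are not given here. Wells with at least 3 UMIs of Xcr1 and Clec9a, markers of conventional type 1 dendritic cells, numbered 6 with WBRT and 19 without, and had 24142 and 19234 CPM of H2-Aa, 549 and 542 CPM of H2-DMa and 384 and 312 CPM of Ciita. Every one of these wells was at or above 12303 CPM of H2-Aa with WBRT and 15041 CPM without. Wells carrying the general dendritic cell list (Flt3, Zbtb46, Dpp4 and Amica1 were found) numbered 20 and 53 and had 19859 and 17212 CPM of H2-Aa and 401 and 355 CPM of Ciita. These wells were 7.63% and 22.6% of their plates and held 39.6% and 54.2% of all Ciita counts. The Xcr1 and Clec9a wells were set apart after the values were seen, because the longer type 1 list was also carried by 19.2% and 33.1% of microglia wells.

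Wells rich in Ccr7, the receptor that guides mature dendritic cells to lymph nodes, were a separate case. BMDM without WBRT had 36 wells with at least 3 Ccr7 UMIs, and BMDM with WBRT had 1. Those 36 wells had 7347 CPM of H2-Aa, 127 CPM of H2-DMa (73.9 to 203), 202 CPM of H2-DMb1 and 96.9 CPM of Ciita (51.6 to 166). The 43 wells of the same plate that carried the general dendritic cell list without 3 Ccr7 UMIs had 18023 CPM of H2-Aa, 648 CPM of H2-DMa (557.5 to 749), 1138 CPM of H2-DMb1 and 372 CPM of Ciita (304 to 450.1). All 4 genes were thus lower in the Ccr7 wells, whose median was 3208 counts per well against 6081, and this split too was made after the values were seen.

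H2-Aa was above its plate's level in wells with monocyte markers and below it in wells with border-associated macrophage markers. Wells carrying the monocyte list (Ccr2, Ly6c2, Plac8 and Vcan were found) numbered 96 and 75 with and without WBRT, and had 11884 and 14927 CPM of H2-Aa and 170 and 315 CPM of Ciita. Wells carrying the border-associated list, which includes Mrc1 and Pf4, numbered 175 and 23 and had 5167 and 3147 CPM of H2-Aa and 46.4 and 23.7 CPM of Ciita. BMDM wells carrying the microglia list had 4393 and 6638 CPM of H2-Aa and 23.7 and 109 CPM of Ciita. A well can carry several lists: 17 of the 96 and 35 of the 75 monocyte-list wells also carried the general dendritic cell list. The 63 and 19 monocyte-list wells with none of the 4 dendritic cell lists, a set made after the values were seen, had 10479 and 11449 CPM of H2-Aa and 125.5 (98.3 to 158) and 217.5 CPM (131 to 340) of Ciita. No well of any plate carried the B cell list, of which Cd79a, Cd79b and Ms4a1 were found.

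**Figure D5:**
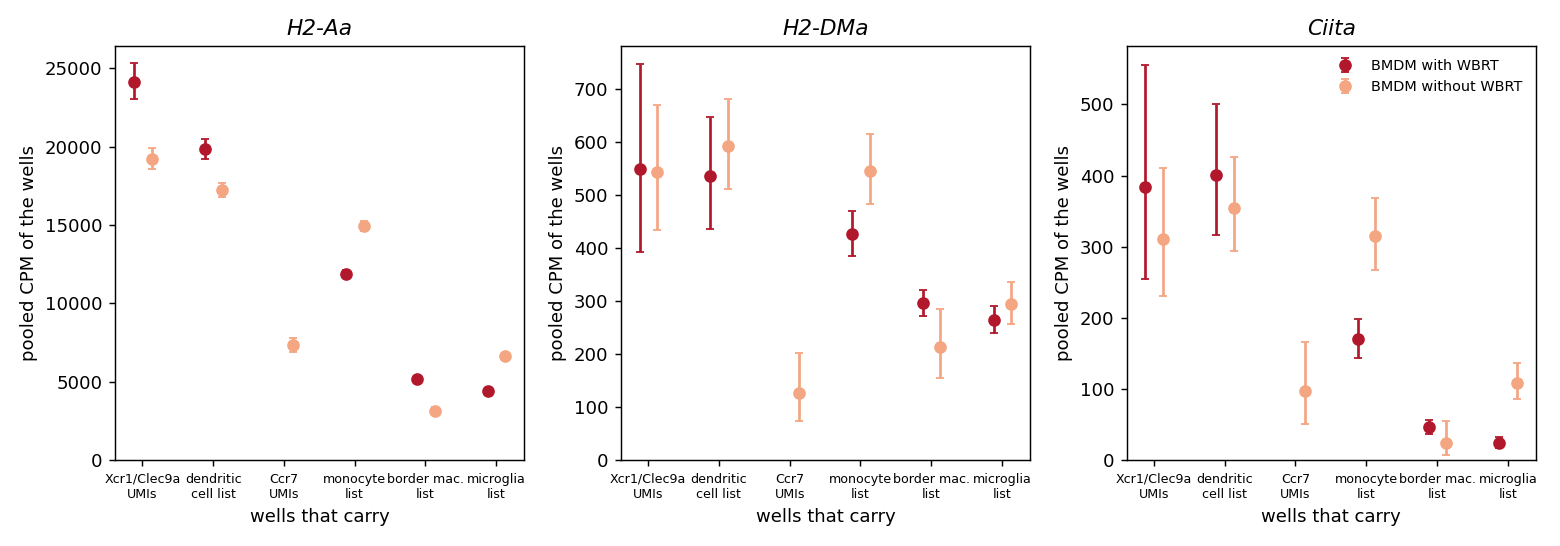
Pooled CPM of H2-Aa, H2-DMa and Ciita in BMDM wells with WBRT (dark, left of each pair) and without WBRT (light), grouped by the markers the wells carry, with exact 95% Poisson intervals; sets overlap and sets under 3 wells are not drawn. Wells with Xcr1 and Clec9a or the general dendritic cell list are among the highest for H2-Aa, and the 36 Ccr7 wells without WBRT are lower than these for all 3 genes.

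The next comparison asks whether the class II set differed after WBRT among cells sorted as BMDM. Ciita alone passed 2-fold: it had 78.4 CPM with WBRT against 169 CPM without, or 0.464 times the level (0.380 to 0.565). Its log2 ratio of -1.06 lay between -1.12 and -0.51 over 14 alternatives and was short of 2-fold in 4 of them. In wells without any dendritic cell list its fold was 0.507 (0.347 to 0.752), and in wells that carry one it was 0.542 (0.420 to 0.697). This split includes the type 1 list, which microglia wells also carried, and put 83 and 148 BMDM wells with and without WBRT among the carriers. It therefore does not separate dendritic cells from other cells. Over the set, 1 of 7 members was at least 2-fold lower, against 6.14% of 6551 genes, and 0 of 7 at least 2-fold higher, against 5.16%. For the set, 1 member of 7 says little against that share. The median log2 ratio of the members was -0.16, against 0.08 over all genes. H2-Aa was 0.746 times as high (0.729 to 0.764), H2-Eb1 0.663 times (0.643 to 0.682), H2-Ab1 0.895 times (0.871 to 0.920), H2-DMb1 0.904 times (0.817 to 1) and H2-DMa 0.960 times (0.854 to 1.08).

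Cd74 went the other way, at 8594 CPM with WBRT against 6954 CPM without, or 1.24-fold (1.21 to 1.27). For each H2-Aa UMI there were 1.23 Cd74 UMIs with WBRT (1.21 to 1.26) and 0.749 without (0.728 to 0.770). H2-Ea-ps was also higher, at 962 against 643.5 CPM, or 1.495-fold (1.38 to 1.62), and its ratio to H2-Aa was 0.141 against 0.070. In wells that failed the filter the Cd74 ratio was 0.552 with WBRT and 0.496 without, below the kept wells in both plates.

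The 2 BMDM plates differed in the cells they held as well as in class II. The border-associated list was carried by 66.8% of wells with WBRT and 9.83% without, the general dendritic cell list by 7.63% and 22.6%, and Ccr7 stood at 1.19 CPM against 495 CPM. Carrying a list was called at full depth, which differed, with a median of 8894 and 4388 counts per well. The summed levels were 1307 against 281.5 CPM for the border-associated list and 99.5 against 381 CPM for the general dendritic cell list. Within sets, Ciita was at 170 CPM with WBRT (144 to 198) against 315 CPM without (267 to 368) in wells carrying the monocyte list, and at 23.7 (16.8 to 32.6) against 109 CPM (86.7 to 136) with the microglia list. The intervals overlapped with the general dendritic cell list, at 401 (317 to 500) against 355 CPM (293 to 426), and with the border-associated list, at 46.4 (37.1 to 57.2) against 23.7 CPM (7.70 to 55.3) on 5 counts without WBRT. Fewer cells of a kind and less RNA per cell cannot be told apart in a plate sum, and the part of the plate make-up in the Ciita difference was not tested beyond these values.

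Of 7 measured genes on the interferon-gamma and interferon regulatory factor list, whose products are known to act upstream of Ciita, 3 were at least 2-fold lower with WBRT in BMDM, against 6.14% of all genes, and none at least 2-fold higher. Jak2, a kinase of the interferon-gamma receptor, had 54.9 CPM against 269.5 CPM, Irf1 had 53.3 against 132 CPM and Irf8 371 against 902 CPM. The receptor genes Ifngr1 and Ifngr2 were at 1.085-fold (0.960 to 1.23) and 0.990-fold (0.872 to 1.12), and Jak1, another kinase of the receptor, at 0.955-fold (0.826 to 1.10). The H2-DO chain genes H2-Oa and H2-Ob had 11.5 against 49.8 CPM and 13.5 against 46.6 CPM. Neither a link of these genes to Ciita nor the part of the plate make-up in their values was tested.

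Of 8 endosomal processing genes, 1 was at least 2-fold higher with WBRT in BMDM, the cathepsin B gene Ctsb at 10648 against 3719 CPM and 5.16% of all genes were; 1 gene of 8 says little against that share. Of the other 7, 5 were higher and 2 lower, with Ifi30 among the higher at 1.06-fold (0.966 to 1.17). Between the sorts without WBRT, 1 of these 8 was higher and 7 lower in BMDM, none past 2-fold, and their median was -0.82 on the log2 scale. With WBRT the median was -0.02: 2 were higher, Ctsd and Cst3 were at least 2-fold lower in BMDM, against 7.45% of all genes, Ctsl was at 0.614 times, and Ctss, Lgmn and Ctsb were at 0.994, 0.978 and 0.999 times with intervals that include 1. For the proteins that hold Ciita at the boxes, of Rfx5, Rfxap, Rfxank, Nfya, Nfyb, Nfyc and Creb1, 5 were measured at 20 CPM or more without WBRT, 4 of them higher in BMDM and none of these past 2-fold, with intervals that include 1 for Rfx5, Nfyb and Nfyc. Nfya was at least 2-fold lower there, at 0.453 times (0.323 to 0.633), as were 6.81% of all genes, and 1 gene of 5 says little against that share. With WBRT Nfya was at 0.886 times (0.624 to 1.28), and 1 of 3 measured genes was higher and 2 lower, none past 2-fold. The ubiquitin ligase genes March1 and March8, which remove class II from the surface, were within 2-fold in all 4 comparisons.

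Of the 4 costimulation genes measured in each pair of plates, Cd40 alone passed 2-fold between the sorts. Cd40 had 32.6 CPM in BMDM against 3.08 CPM in microglia with WBRT and 61.6 against 16.0 CPM without. Of all genes, 7.91% with WBRT and 10.3% without were at least 2-fold higher in BMDM, so 1 gene of 4 says little for the list. Cd86 was at 1.10-fold (0.827 to 1.497) and 1.06-fold (0.837 to 1.34). After WBRT in BMDM, 1 of 4 measured costimulation genes was at least 2-fold lower, against 6.14% of all genes: Icosl, at 42.2 against 92.4 CPM. Here too 1 gene says little against that share.

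The last comparison is that of WBRT among cells sorted as microglia. Over all wells, H2-Aa had 172 CPM with WBRT against 390 CPM without and H2-Eb1 69.4 against 266 CPM, so 2 of the 6 members at 20 CPM or more were at least 2-fold lower, against 7.56% of 6723 genes, and 0 at least 2-fold higher, against 9.36%. Ciita was below that level in both plates. The median log2 ratio was -0.61, against 0.06 over all genes. After thinning to 1000 UMIs the log2 ratio of H2-Aa had the other sign, at 0.20; the 1 top well then held 36 H2-Aa UMIs with WBRT and 18 without, while the other 150 and 156 wells held 17 and 30 H2-Aa UMIs, lower with WBRT as before thinning. Without the 1 top well of each plate, H2-Aa was at 77.2 against 150.0 CPM, or 0.515 times the level (0.364 to 0.719), and H2-Eb1 at 44.8 against 121 CPM, or 0.370 times (0.236 to 0.562). H2-Ab1 was then at 1.24-fold (0.941 to 1.64), Cd74 at 1.10-fold (0.755 to 1.59) and H2-DMa at 1.12-fold (0.841 to 1.48). The median log2 ratio was 0.13, with 1 member at least 2-fold lower. This H2-Aa fold rests on 50 and 130 counts. Most wells with H2-Aa held 1 or 2 UMIs (37 and 71 wells), and single UMIs are not read as expression above. In wells that failed the filter, H2-Aa made up 32 of 98573 UMIs with WBRT and 16 of 57438 without, a larger share with WBRT. H2-Eb1 made up 17 and 16 of them, a smaller share with WBRT. The part of RNA from other wells in these folds was not tested. The microglia plate with WBRT had a median ERCC share of 30.6% per well, against 6.92% without, and its part in these values was not tested.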

How the data were processed

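The 4 plates of 384 wells were grouped by their titles. The tables deposited by the authors hold expected counts (estimated transcript numbers) for each gene in each well, not normalized; all values equal, within 0.005, whole UMI numbers corrected by the authors for coincidence among 4096 identifiers, as read from the values. The build was GRCm38, per the submitters' processing notes; no source used here names the aligner, counter or annotation. The tables name genes by symbol and chromosome.

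Wells with at least 1000 counts outside ERCC and mitochondrial rows and an ERCC share under 50% were kept. CPM are summed counts over all endogenous counts. A count of 3 is 1.19, 2.37, 4.62 and 3.43 CPM in BMDM with and without WBRT and microglia with and without WBRT. Log2 ratios use CPM + 5; a gene is compared at 20 CPM in 1 of 2 plates and called at 2-fold. Intervals are exact at 95%, take each transcript as independent and hold counting error alone. Thinning was to 1000 observed UMIs and left out no well. Computation used Python 3.11.15, numpy 2.4.6, pandas 2.3.3 and scipy 1.17.1, matplotlib 3.10.9 for figures, and edgeR 4.0.16 for TMM factors of the rounded pooled counts; the intervals were tested on simulated data. No doublet caller was run. With 1 library per group no test was possible. The named genes are the members, the genes of 10 pathway lists, up to 4 genes of each of 14 marker lists, and the 10 genes most correlated with H2-Aa over BMDM wells, seen in at least 20% of thinned wells of both plates. Members and lists were chosen with earlier results of these data known. Of the lists of other cells, the plasmacytoid list was carried by 4.58%, 1.28%, 1.99% and 3.18% of wells in the plate order above, and the T or NK cell, neutrophil, astrocyte, endothelial and carcinoma lists by at most 1.91% of wells of a plate. Alternatives were other well filters, thinning, TMM factors, observed UMIs, other pseudocounts and sets of wells left out.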

Additional observations from a re-analysis of the deposited data

Results flagged for a closer look

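Cd74 differed in opposite directions after WBRT in the 2 sorts. Its fold with WBRT over without was 1.24 in BMDM (95% interval 1.21 to 1.27) and 0.547 in microglia (0.433 to 0.682), and the difference between the 2 was not tested, since each group is 1 library. Without the 1 top well of each microglia plate, which held 50.2% and 75.4% of the Cd74 counts with and without WBRT, the microglia fold was 1.10 (0.755 to 1.59).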

How the results depend on the processing

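Each setting below was changed alone. The sign of all 7 members between the sorts held in every alternative, and 6 or 7 members were at least 2-fold higher in BMDM in each, all 6 counted where only members of at least 100 CPM were used. The median log2 ratio of the members moved out of the range that counting error gives in these cases. Between the sorts without WBRT (4.28) it was 3.34 without wells carrying any of the 4 dendritic cell lists, 6.04 with BMDM wells lacking and microglia wells carrying the microglia list, and 5.51 without the 5 wells with most member counts in each plate. With WBRT (4.57) these became 5.2 for the microglia list and 5.34 without 5 wells, and it was 5.31 with at least 3000 counts per well, 5.06 with an ERCC share under 30%, 4.01 with every well weighted alike and 4.93 with members of at least 100 CPM. For WBRT in BMDM (-0.16) it was -0.232 at 3000 counts, -0.107 without dendritic cell lists, 0.000181 with the microglia list and -0.293 without 5 wells. Ciita, the 1 member at least 2-fold lower there, left the count at 0 when wells were thinned to 1000 UMIs (log2 ratio -0.80), with a pseudocount of 20 (-0.94), without dendritic cell lists (-0.93) and with the microglia list (-0.51), against -1.06. For WBRT in microglia (-0.61, 2 members at least 2-fold lower) it was -1.44 with 4 members lower at 3000 counts, -1.11 with 4 at an ERCC share under 30%, 0.149 with 0 when wells were weighted alike, 0.196 with 0 when thinned, -1.06 with 5 without dendritic cell lists, 0.358 with 0 for the microglia list and -0.00281 without 5 wells. H2-Aa changed sign there, to a log2 ratio of 0.196 when thinned and 0.276 with the microglia list; H2-Ab1 and Cd74 had the other sign in 4 of 15 alternatives (up to 0.851 and 0.973), H2-DMb1 in 4 of 14 and Ciita in 3 of 14 (0 in 2 more), while H2-Eb1 and H2-DMa kept theirs. Chosen after seeing the data, leaving out the top microglia well gave 5.55 without WBRT, 5.09 with WBRT and 0.129 with 1 member lower for WBRT in microglia. Leaving out 3 dendritic cell lists or Xcr1 and Clec9a wells, also chosen then, gave 4.33 between the sorts with WBRT and 0.0285 for WBRT in BMDM. Without wells carrying any of the 4 dendritic cell lists, in the plates without WBRT, H2-Aa had 8064 CPM in BMDM and 715 CPM in microglia. Over all wells it had 9307 and 390 CPM. The 52 microglia wells left out there did not include the top well, and the lists do not separate dendritic cells from other cells. Beyond what each setting leaves out, the cause was not tested.

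Of the single members' log2 ratios, 302 stayed within their counting interval, 106 moved out of it and the 2 of H2-Aa above turned from past 2-fold to the other sign. For WBRT in BMDM, H2-Aa, H2-Eb1, Cd74 and Ciita kept their sign in all 14 alternatives, H2-Ab1 and H2-DMb1 had the other sign in 2 and H2-DMa in 4. Depth limits Ciita in microglia, which had 2 and 4 counts. No paired analysis was possible because each group is 1 plate and no result comes from a test.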
